A study of Mus musculus with 24 samples.

Results

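The small proline-rich envelope precursors are described here through 5 genes, *Sprr1a*, *Sprr1b*, *Sprr2a3*, *Sprr2b* and *Sprr3*. They were taken by their symbols, not by any measured value, and all 5 were among the 10818 genes of the table. RNA of primary epidermal progenitors, keratinocytes grown from the skin of newborn wild-type mice, was sequenced in 8 groups of 3 libraries. In the first experiment the cells carried a lentiviral hairpin against *Id1* (*shId1*) or a scrambled hairpin (*shScr*). In the second all cells carried a lentivirus for inducible ID1, and were given doxycycline for 3 days (ID1 +dox) or none (ID1 -dox). Each was sampled after 24 h in high calcium, which starts differentiation, and at 0 h as progenitors in low calcium. No group stayed in low calcium over the 24 h, so high calcium and the longer culture cannot be told apart. Levels were not tested across the experiments. Where groups of both are ranked, lentivirus and experiment cannot be told apart. The labels call the 3 libraries of a group biological replicates but name no animal or culture, so a p-value measures the spread between these libraries.

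SPRR proteins are short, rich in proline and taken up into the cornified envelope, the protein shell that replaces the membrane of a keratinocyte at the end of differentiation. Transglutaminases link them through glutamine and lysine residues at both ends, so that they bridge other envelope proteins such as loricrin. *Sprr1a* and *Sprr1b* are early precursors that also rise after wounding and stress, the *Sprr2* genes form a multigene subfamily in the mouse, and *Sprr3* is best known from stratified linings such as the oesophagus. The genes lie together in the epidermal differentiation complex. ID1 holds basic helix-loop-helix factors away from DNA, and such factors bind E-boxes.

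In GRCm38 with the GENCODE release M21 annotation, the members lay within 200.5 kb of chromosome 3. *Sprr2a3* (chr3:92285417-92291405, plus strand) and *Sprr2b* (chr3:92316620-92318085, plus strand) were at one end, followed by the other *Sprr2* genes. *Sprr1b* (chr3:92436809-92438789, minus strand), *Sprr3* (chr3:92456502-92458720, minus strand) and *Sprr1a* (chr3:92483952-92485895, minus strand) were at the other end, on the opposite strand. All have 2 exons in this annotation, which add up to 806 bases in *Sprr1a*, 830 in *Sprr1b*, 784 in *Sprr2b*, 1222 in *Sprr3* and 2883 in *Sprr2a3*. Of the words of 50 bases in its transcripts, *Sprr2a3* shared 61.1% with other genes, above all *Sprr2a1* and *Sprr2a2*, and *Sprr2b* shared 14.1%. *Sprr1a*, *Sprr1b* and *Sprr3* shared none. How reads that match several copies were counted was not given in the sources used here. The level of *Sprr2a3*, and in part that of *Sprr2b*, is uncertain.

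The promoters of *Sprr1a*, *Sprr2b* and *Sprr3* are printed because they cover the lowest and the highest estimates among the members at 24 h in *shId1* cells, and that of *Sprr2f*, a neighbour of *Sprr2b* outside the 5, because it rose where *Sprr2b* fell. Each window runs from 250 bases before the RefSeq start to 50 after it, in GRCm38.p6, read 5′ to 3′ on the strand of the gene (plus for *Sprr2b* and *Sprr2f*, minus for *Sprr1a* and *Sprr3*). Capitals mark AP-1 sites (TGANTCA), octamers (ATTTGCAT) and TATA boxes (TATAAA), searched on both strands.
Sprr1a, chr3:92485832-92486131: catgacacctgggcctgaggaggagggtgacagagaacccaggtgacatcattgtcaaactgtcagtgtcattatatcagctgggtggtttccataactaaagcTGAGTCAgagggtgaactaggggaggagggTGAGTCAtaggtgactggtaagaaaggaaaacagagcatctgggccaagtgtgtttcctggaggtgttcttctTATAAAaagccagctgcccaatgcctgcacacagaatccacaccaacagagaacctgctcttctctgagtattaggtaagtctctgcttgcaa
Sprr2b, chr3:92316455-92316754: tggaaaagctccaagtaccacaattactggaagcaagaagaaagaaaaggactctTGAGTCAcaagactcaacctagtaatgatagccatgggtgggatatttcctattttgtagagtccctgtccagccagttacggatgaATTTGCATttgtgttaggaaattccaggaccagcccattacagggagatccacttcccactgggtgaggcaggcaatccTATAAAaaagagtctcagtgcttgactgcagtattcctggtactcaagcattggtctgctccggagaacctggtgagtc
Sprr3, chr3:92458671-92458970: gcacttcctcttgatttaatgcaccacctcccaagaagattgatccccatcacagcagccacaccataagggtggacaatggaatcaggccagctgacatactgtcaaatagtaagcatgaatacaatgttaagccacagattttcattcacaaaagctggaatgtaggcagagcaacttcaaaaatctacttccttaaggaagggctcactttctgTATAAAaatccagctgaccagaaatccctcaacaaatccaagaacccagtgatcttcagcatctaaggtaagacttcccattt
Sprr2f, chr3:92364937-92365236: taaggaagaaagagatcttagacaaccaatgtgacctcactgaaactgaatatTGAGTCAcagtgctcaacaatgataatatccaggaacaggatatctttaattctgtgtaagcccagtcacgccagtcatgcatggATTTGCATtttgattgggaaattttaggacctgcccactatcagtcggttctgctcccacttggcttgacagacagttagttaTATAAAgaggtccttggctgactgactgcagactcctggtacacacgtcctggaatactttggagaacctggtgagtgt

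A TATA box stood -43, -30, -29 and -33 bases from the start of *Sprr1a*, *Sprr1b*, *Sprr2b* and *Sprr3*, and 13.6% of all 32851 mouse promoter windows of this length hold one. *Sprr1a* held 2 AP-1 sites (at -146 and -116), *Sprr1b* 1 (at -111) and *Sprr2b* 1 (at -195), against 7.81% of all windows with any. *Sprr2b* was the 1 member with an octamer, at -108, a motif in 1.74% of all windows, and the windows of *Sprr2d*, *Sprr2e*, *Sprr2f*, *Sprr2h*, *Sprr2i* and *Sprr2k* held an AP-1 site, an octamer and a TATA box as well. The windows of *Sprr2a3* and of its copies *Sprr2a1* and *Sprr2a2* held none of these 3 motifs. The *Sprr2a3* window, placed by the RefSeq start, ends at base 92285353, before the GENCODE start at 92285417. The bases between them were not searched, so a motif just before the GENCODE start would have been missed. E-boxes (CANNTG) were in the windows of all 5 members, with 6 in *Sprr1a*, 2 each in *Sprr1b* and *Sprr3* and 1 each in *Sprr2a3* and *Sprr2b*, and in 72.3% of all windows. In *Sprr2b* and *Sprr2d* the E-box overlaps the octamer. The ETS core (GGAA) was in all 5 and in 96% of all windows. A match is letters in a window, not a bound site.

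**Figure D1:**
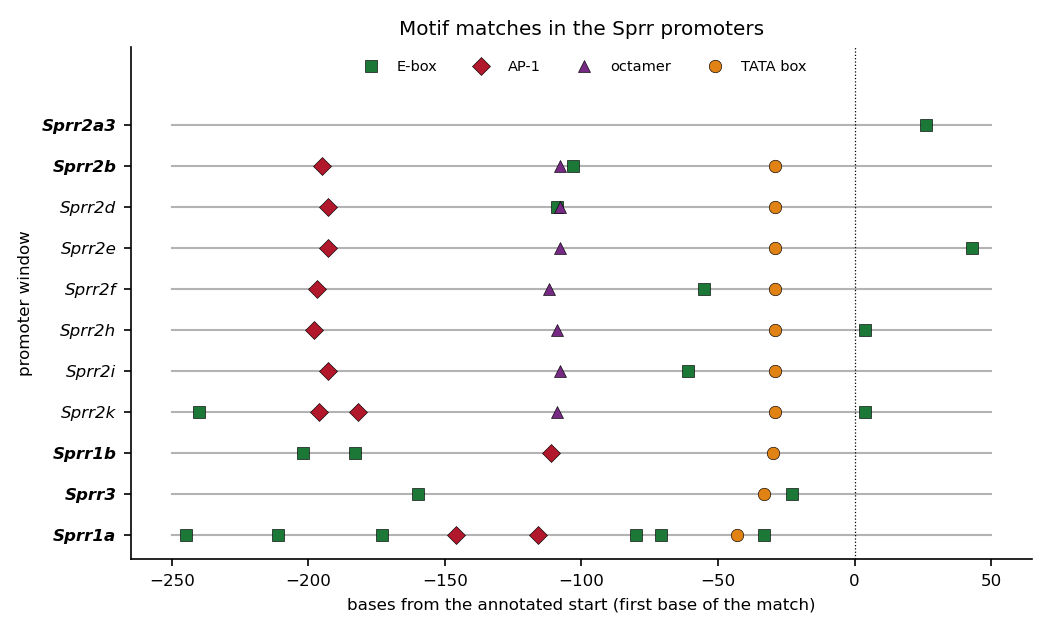
Matches to 4 motifs in the promoter windows of the 5 members (bold) and the 6 other Sprr genes of the table with a window, by the distance in bases of the first base of the match from the annotated start (dotted line). The Sprr2b window holds its AP-1, octamer and TATA box matches close to where those 6 genes hold theirs. The window of Sprr2a3 holds 1 E-box and none of the other 3 motifs, but it ends before the GENCODE start of that gene.

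The table held 21442371 to 35720140 reads per library, and its values are CPM, reads relative to a library size scaled by TMM, with no division by gene length. 1 read was worth 0.0263 to 0.0496. All 7 basal keratinocyte markers listed (*Krt14* and others) and 6 of 8 suprabasal markers (*Krt10* and others) were in the table, with none of 10 fibroblast and none of 4 leukocyte markers, 1 of 4 melanocyte markers (*Pmel*, at most 3.52) and 1 of 3 endothelial markers (*Kdr*, at most 25.6). The table also lacked the suprabasal markers *Krt1* and *Sbsn*, so a gene it lacks may still have been expressed. The paper maintained such progenitors with 3T3-J2 feeder cells, whose part in the RNA was not tested. *Id1* itself was lower in *shId1* than in *shScr* cells at 0 h, with a log2 difference of -1.69 (limma, adjusted p = 0.018), and higher with doxycycline by 2.72 (adjusted p = 2.5e-06). At 24 h neither difference of *Id1* passed the test (-0.67, adjusted p = 0.26, and 0.46, adjusted p = 0.23). From 0 h to 24 h *Id1* rose by 2.68 in ID1 -dox cells (adjusted p = 2.7e-07), from a mean of 10.3 to 67.0. In ID1 +dox cells it changed by 0.42 (adjusted p = 0.17), and the interaction of doxycycline and time was -2.26 (adjusted p = 0.0012). The change was -0.99 in *shScr* (adjusted p = 0.038) and 0.03 in *shId1* cells (adjusted p = 0.95). Among hairpin cells the libraries numbered 1 stood apart, at 0 h above all for *Sprr1a* and *Sprr3*.

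Per kb of exon, the members fell into abundant and scarce ones. In ID1 -dox cells at 24 h *Sprr1b* reached 2764 ± 438 and *Sprr1a* 2626 ± 620.2 per kb (mean ± SD, n = 3). *Sprr2b* reached 41.1 ± 10.1, *Sprr2a3* 35.8 ± 0.910 and *Sprr3* 31.6 ± 6.41 per kb in the same libraries. The length of *Sprr2a3*, 2883 bases, joins the exons of 2 annotated transcripts. Before division by length the means were 103 for *Sprr2a3*, 38.6 for *Sprr3* and 32.2 for *Sprr2b*. The order of these genes per kb therefore depends on the annotated length. In *shId1* cells at 24 h *Sprr3* was at 77.4 ± 11.6 per kb, above *Sprr2a3* at 6.14 ± 1.62 and *Sprr2b* at 4.74 ± 1.22. In *shScr* cells at 24 h they stood at 24.9 ± 12.2, 9.84 ± 3.08 and 11.6 ± 2.62 per kb.

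All 5 members rose after 24 h in high calcium in all 4 arms, with no overlap between the 24 h and the 0 h libraries in any of them. How many of all genes had no overlap was not counted. An unadjusted p under 0.05 in limma was reached by 6710 of 10790 genes in *shId1* and 6964 of 10790 in *shScr* cells. In ID1 +dox cells it was reached by 8227 of 10789 genes, and in ID1 -dox cells by 8356 of 10789. A gene was called where limma's moderated test gave both an adjusted p below 0.05 and a difference beyond 1 on the log2(value + 0.5) scale, which understates the change of low genes. Of all genes tested, 9.38% were called higher at 24 h in *shId1*, 10.9% in *shScr*, 10.1% in ID1 +dox and 14.8% in ID1 -dox cells (lower: 6.2%, 7.97%, 14.9% and 15.9%). The median of the members was 2.88 in *shId1*, 3.91 in *shScr*, 2.26 in ID1 +dox and 3.89 in ID1 -dox cells, beside medians over all genes between -0.05 and 0.02. The suprabasal markers summed to 2043 to 2491 at 24 h and 628 to 857 at 0 h in *shId1*, 2011 to 3115 and 609 to 768 in *shScr*, 1601 to 1719.6 and 709.6 to 768 in ID1 +dox, and 2184 to 2575 and 855 to 1082 in ID1 -dox libraries. *Kdr* was at 8.43 to 14.0 at 24 h and 3.10 to 6.45 at 0 h in *shId1*, 5.26 to 8.76 and 4.49 to 6.96 in *shScr*, 12.99 to 23.6 and 8.503 to 9.25 in ID1 +dox, and 19.4 to 25.6 and 2.99 to 3.96 in ID1 -dox libraries, while the other endothelial markers listed were not in the table. The part of these markers in the rise was not tested, and in bulk RNA fewer differentiating cells and less RNA per cell cannot be told apart. The 20 calls held under each of the 22 or 23 alternative settings run on them.

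*Sprr1a*, a bridging precursor of the early envelope, spread widely between hairpin libraries at 0 h. In the order of replicates 1, 2 and 3 it had 904, 1268 and 1026 in *shId1* cells at 24 h and 210.3, 23.7 and 14.1 at 0 h. In *shScr* cells it had 324, 535 and 670.3 at 24 h and 74.6, 9.65 and 11.2 at 0 h. At 0 h the replicates numbered 1 were the highest of both hairpin groups by far. In ID1 +dox cells the values were 961, 833 and 1113 at 24 h and 124, 142 and 131 at 0 h. In ID1 -dox cells they were 1859, 2693 and 1798 at 24 h and 149.8, 76.9 and 85.4 at 0 h. On the log2 scale the rise was 4.65 ± 0.92 (adjusted p = 0.0012) in *shId1*, 4.56 ± 0.92 (adjusted p = 0.0012) in *shScr*, 2.86 ± 0.21 (adjusted p = 1.7e-08) in ID1 +dox and 4.38 ± 0.21 (adjusted p = 1.1e-10) in ID1 -dox cells (estimate ± SE). Without the replicates numbered 1 it was 5.92 in *shId1* and 5.78 in *shScr* cells. With single libraries left out it ran between 3.89 and 5.81 in *shId1* and between 4.04 and 5.48 in *shScr* cells, highest without the replicate 1 of that group at 0 h and, in *shId1*, lowest without replicate 3 at 0 h. The ID1 -dox libraries at 24 h were the highest of all 8 groups, and the 4 groups at 0 h overlapped their neighbours. Here and below, such an order across the experiments is a description that was not tested.

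*Sprr1b*, the close relative of *Sprr1a*, was the member with the highest level at 0 h per kb in the means of all 4 progenitor groups and varied less than *Sprr1a* in hairpin progenitors. In the order of replicates 1, 2 and 3 it had 923, 1471 and 1200.2 in *shId1* cells at 24 h and 214, 174 and 145 at 0 h. In *shScr* cells it had 843, 1147 and 1451 at 24 h and 111, 74.7 and 100.8 at 0 h. The *shId1* and *shScr* libraries were apart at 0 h and overlapped at 24 h. In ID1 +dox cells the values were 1406, 1253 and 1328 at 24 h and 205, 255 and 251 at 0 h. In ID1 -dox cells they were 2140.4, 2708 and 2032 at 24 h and 391, 251 and 279 at 0 h. On the log2 scale the rise was 2.74 ± 0.23 (adjusted p = 2.2e-06) in *shId1*, 3.56 ± 0.23 (adjusted p = 1.9e-07) in *shScr*, 2.49 ± 0.15 (adjusted p = 3.0e-09) in ID1 +dox and 2.92 ± 0.15 (adjusted p = 2.4e-10) in ID1 -dox cells (estimate ± SE). The ID1 -dox libraries at 24 h were again above all others.

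*Sprr2a3*, 1 of a set of near-identical *Sprr2a* copies, was low at 0 h and stayed far below the *Sprr1* genes. In the order of replicates 1, 2 and 3 it had 12.8, 22.1 and 18.1 in *shId1* cells at 24 h and 2.07, 2.28 and 1.46 at 0 h. In *shScr* cells it had 18.1, 33.3 and 33.7 at 24 h and 0.897, 2.27 and 3.11 at 0 h. Replicate 1 was the lowest *shScr* library at both times. In ID1 +dox cells the values were 23.2, 29.0 and 22.3 at 24 h and 4.44, 5.43 and 5.69 at 0 h. In ID1 -dox cells they were 104, 105 and 100.3 at 24 h and 13.5, 7.22 and 11.1 at 0 h. On the log2 scale the rise was 2.88 ± 0.34 (adjusted p = 2.5e-05) in *shId1*, 3.53 ± 0.34 (adjusted p = 3.8e-06) in *shScr*, 2.15 ± 0.18 (adjusted p = 6.1e-08) in ID1 +dox and 3.26 ± 0.18 (adjusted p = 3.9e-10) in ID1 -dox cells (estimate ± SE). The 3 ID1 -dox libraries at 24 h lay within a narrow range, far above every other library.

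*Sprr2b*, its neighbour in the cluster, was near the limit of the reads in hairpin progenitors. In the order of replicates 1, 2 and 3 it had 2.64, 4.09 and 4.43 in *shId1* cells at 24 h and 0.180, 0.348 and 0.375 at 0 h. In *shScr* cells it had 10.3, 10.3 and 6.71 at 24 h and 0, 0.117 and 0.294 at 0 h. At 0 h those values rest on 6, 11 and 11 reads in *shId1* and 0, 3 and 10 reads in *shScr* libraries, and the 0 allows a value of up to 0.108 (3 reads, counting error only). In ID1 +dox cells the values were 3.99, 4.88 and 3.43 at 24 h and 1.13, 0.527 and 0.632 at 0 h. In ID1 -dox cells they were 24.0, 32.8 and 39.9 at 24 h and 2.32, 1.13 and 1.72 at 0 h. On the log2 scale the rise was 2.38 ± 0.25 (adjusted p = 9.0e-06) in *shId1*, 3.91 ± 0.25 (adjusted p = 1.6e-07) in *shScr*, 1.88 ± 0.24 (adjusted p = 5.0e-06) in ID1 +dox and 3.89 ± 0.24 (adjusted p = 1.6e-09) in ID1 -dox cells (estimate ± SE). The size of the hairpin rises moved with the pseudocount, to 3.26 in *shId1* and 5.46 in *shScr* cells at 0.1, and was 3.49 and 5.81 with edgeR on recovered reads. At 24 h the ID1 -dox libraries were highest, *shScr* next, and the ID1 +dox and *shId1* libraries overlapped below them. This order runs across the experiments and was not tested.

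*Sprr3* was the member with the most uneven start. In the order of replicates 1, 2 and 3 it had 78.7, 99.3 and 106 in *shId1* cells at 24 h and 18.5, 0.758 and 0.341 at 0 h. In *shScr* cells it had 13.2, 39.4 and 38.8 at 24 h and 5.20, 0.195 and 0.323 at 0 h. The 0 h values rest on 617, 24 and 10 reads in *shId1* and 145, 5 and 11 reads in *shScr* libraries, and replicate 1 stood far above the others in both. In ID1 +dox cells the values were 8.44, 8.93 and 10.2 at 24 h and 1.44, 1.61 and 1.47 at 0 h. In ID1 -dox cells they were 36.6, 47.3 and 32.0 at 24 h and 3.63, 1.26 and 1.89 at 0 h. On the log2 scale the rise was 5.12 ± 1.07 (adjusted p = 0.0018) in *shId1*, 4.23 ± 1.07 (adjusted p = 0.0052) in *shScr*, 2.26 ± 0.24 (adjusted p = 8.1e-07) in ID1 +dox and 3.90 ± 0.24 (adjusted p = 1.6e-09) in ID1 -dox cells (estimate ± SE). Without the replicates numbered 1 it was 6.65 in *shId1* and 5.71 in *shScr* cells. With single libraries left out it ran between 4.27 and 6.52 in *shId1* and between 3.68 and 5.20 in *shScr* cells, highest without the replicate 1 of that group at 0 h and, in *shId1*, lowest without replicate 3 at 0 h. It was the 1 member whose *shId1* libraries at 24 h were above those of all other groups, an order that was not tested across the experiments.

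**Figure D2:**
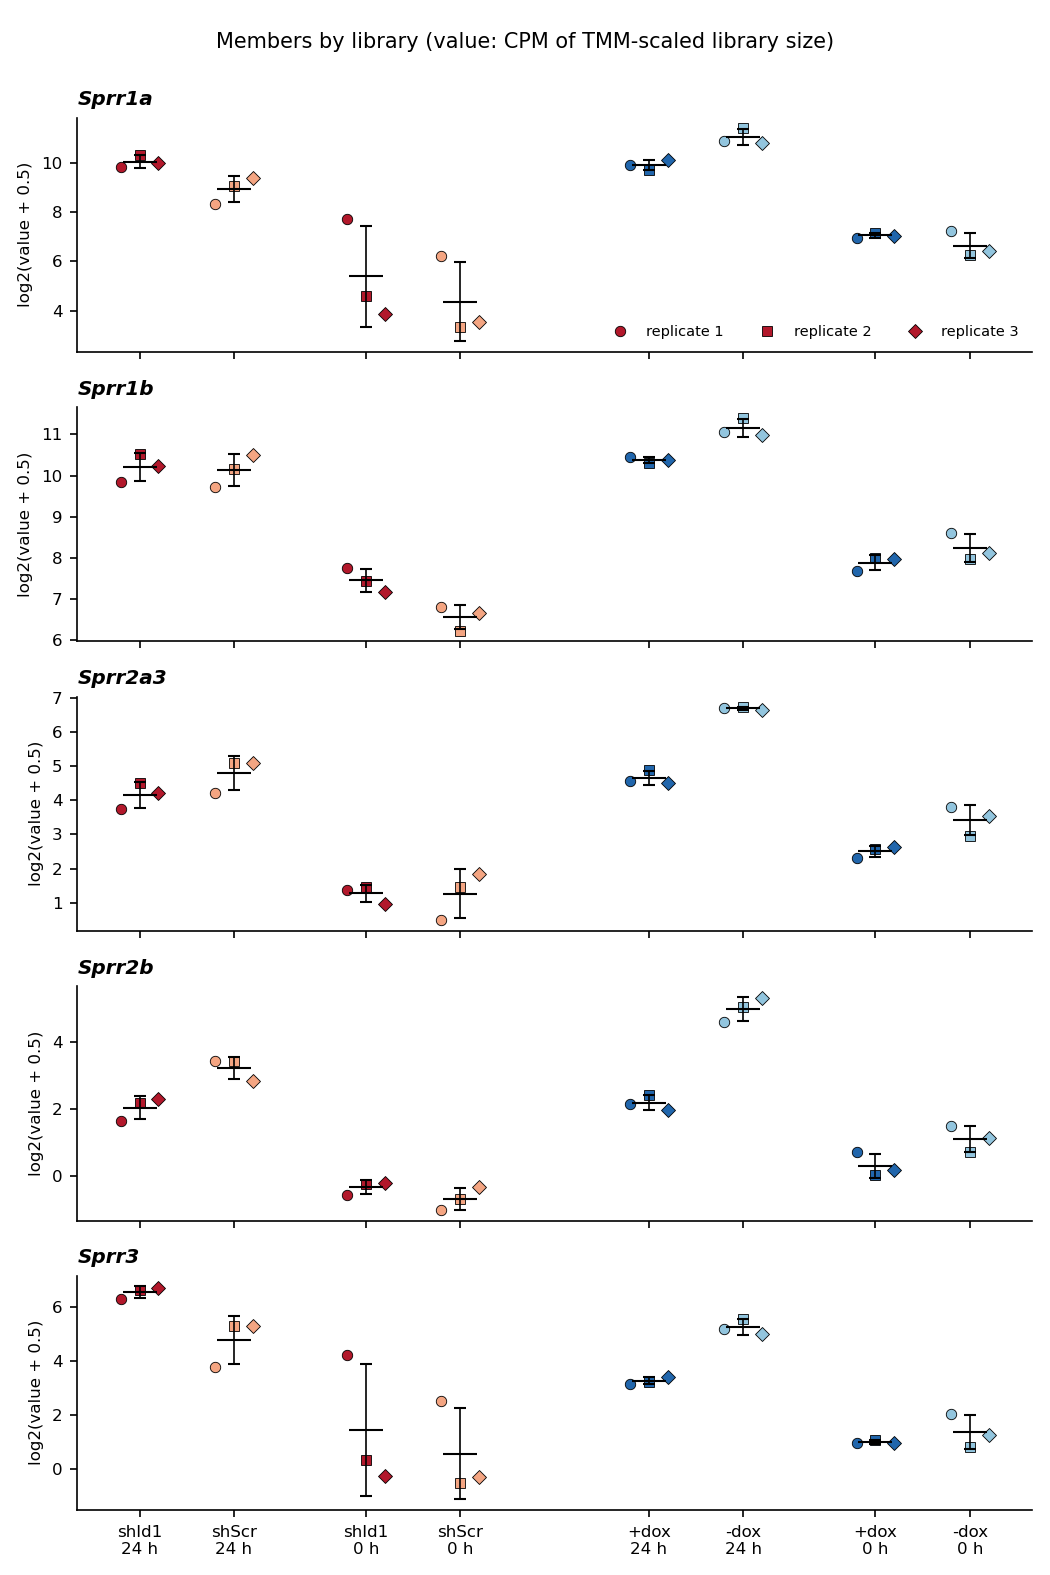
log2(value + 0.5) of the 5 members in each of the 24 libraries, where the value is CPM of a TMM-scaled library size. Points are libraries with their replicate number as the shape, horizontal lines are means and bars are SD of the 3 log2 values. Levels were not tested across the hairpin and ID1 experiments. Every 24 h library lies above every 0 h library of its arm, the ID1 -dox libraries are the highest at 24 h except for Sprr3, and the replicates numbered 1 stand apart in Sprr1a and Sprr3 of hairpin cells at 0 h.

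At 24 h 4 of the 5 members fell with doxycycline, *Sprr2b* most, beside 1.15% of all genes called lower and 0.964% called higher. *Sprr2b* had 3.99, 4.88 and 3.43 in ID1 +dox and 24.0, 32.8 and 39.9 in ID1 -dox cells, a log2 difference of -2.81 ± 0.24 (adjusted p = 4.6e-06). *Sprr2a3* differed by -2.04 ± 0.18 (adjusted p = 4.8e-06), with a mean of 24.8 ± 3.65 in ID1 +dox and 103 ± 2.62 in ID1 -dox cells (SD, n = 3 each). *Sprr3* differed by -2.00 ± 0.24 (adjusted p = 6.8e-05), with means of 9.18 ± 0.899 and 38.6 ± 7.83 in ID1 +dox and ID1 -dox cells. The group means with doxycycline were 0.127, 0.241 and 0.238 times those without, for *Sprr2b*, *Sprr2a3* and *Sprr3*. The 2 abundant members differed less. *Sprr1a* fell by 1.11 (SE 0.21, adjusted p = 0.0018), to a mean of 969 ± 140.2 in ID1 +dox, against 2117 ± 499.9 in ID1 -dox cells. *Sprr1b* differed by -0.78 ± 0.15 (adjusted p = 0.0022), within the fold limit, so it was not called, although its groups did not overlap.

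The groups did not overlap for any of the 5 members at 24 h, and the median of the members was -2.00 beside -0.01 over all genes. How many of all genes had groups without overlap was not counted. An unadjusted p under 0.05 in limma was reached by 3836 of 10789 genes. The calls of *Sprr2a3* and *Sprr2b* held under all 22 alternatives. That of *Sprr1a* was lost without ID1 -dox replicate 2 (-0.93), under quantile normalization (-0.99) and in 1 fit of all 24 libraries (adjusted p = 0.32), and that of *Sprr3* in that fit (adjusted p = 0.12). The suprabasal markers were lower too, with a summed level of 1601 to 1719.6 in ID1 +dox and 2184 to 2575 in ID1 -dox libraries at 24 h, and the basal markers came to 46875 to 60655 and 51239.6 to 56394. *Krt10*, a small part of the suprabasal sum, had means of 69.3 in ID1 +dox and 213 in ID1 -dox cells. The part of these markers in the result was not tested.

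At 0 h no member was called by limma with doxycycline, where 4.26% of all genes were called higher and 1.01% lower, and 3 of the 5 had an unadjusted p under 0.05. Of all 10789 genes tested, 4729 had such a p. *Sprr2a3* had 4.44, 5.43 and 5.69 in ID1 +dox and 13.5, 7.22 and 11.1 in ID1 -dox progenitors, groups that did not overlap, with a difference of -0.93 ± 0.18 (adjusted p = 0.00091) just within the fold limit. *Sprr2b* differed by -0.81 ± 0.24 (adjusted p = 0.017) and its groups overlapped by 1 library each. *Sprr1a* (0.41 ± 0.21, adjusted p = 0.14), *Sprr1b* (-0.35 ± 0.15, adjusted p = 0.083) and *Sprr3* (-0.37 ± 0.24, adjusted p = 0.25) did not pass. With edgeR on recovered reads, where ID1 +dox at 0 h is 1 library, *Sprr2a3* was at -1.27. In limma it passed both limits under quantile normalization (-1.07) and without ID1 -dox replicate 2 (-1.18). *Sprr2b* passed without that library (-1.01) or ID1 +dox replicate 1 (-1.01), under quantile normalization (-1.06) and with a pseudocount of 0.1 (-1.09).

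The rise with calcium was smaller with doxycycline for 4 of the 5 members. The interaction of doxycycline and time, the log2 rise in ID1 +dox minus that in ID1 -dox cells, was -2.00 ± 0.34 (adjusted p = 0.0014) for *Sprr2b*, -1.63 ± 0.34 (adjusted p = 0.0057) for *Sprr3*, -1.52 ± 0.29 (adjusted p = 0.0035) for *Sprr1a* and -1.11 ± 0.25 (adjusted p = 0.0098) for *Sprr2a3*. Over all genes 3.08% were called lower and 0.473% higher in this test. *Sprr1b* was at -0.43 ± 0.21 (adjusted p = 0.23). From the means of the deposited values, *Sprr1a* rose 7.32-fold in ID1 +dox and 20.3-fold in ID1 -dox cells, and *Sprr2b* 5.36-fold and 18.7-fold. The interaction of *Sprr2b* held under all 21 alternatives. Those of *Sprr1a*, *Sprr2a3* and *Sprr3* were lost with all 24 libraries in the fit (adjusted p = 0.44, 0.1 and 0.49) and with edgeR on recovered reads (adjusted p = 0.071, 0.25 and 0.21), where ID1 +dox at 0 h is 1 library, and that of *Sprr2a3* also without ID1 -dox replicate 2 at 0 h (-0.87) and under quantile normalization (-0.83).

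In hairpin cells at 24 h the members did not move together. *Sprr2b* fell, with 2.64, 4.09 and 4.43 in *shId1* and 10.3, 10.3 and 6.71 in *shScr* libraries, which did not overlap, and a log2 difference of -1.19 ± 0.25 (adjusted p = 0.0079). Its mean in *shId1* cells was 0.410 times that in *shScr* cells, on 71, 103 and 122 reads in *shId1* and 341, 240 and 144 in *shScr* libraries. It was the 1 of 5 members called, where 1.14% of all genes were called lower and 2.21% higher. *Sprr2a3* had 12.8, 22.1 and 18.1 in *shId1* and 18.1, 33.3 and 33.7 in *shScr* libraries, which overlapped, with a difference of -0.65 ± 0.34 (adjusted p = 0.24). The call of *Sprr2b* was lost without *shId1* replicate 1 (-0.99), without the replicates numbered 1 (-0.89), with a pseudocount of 0.1 (adjusted p = 0.076) and with edgeR on recovered reads (adjusted p = 0.25), where 1 *shId1* library was left.

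*Sprr3* and *Sprr1a* lay on the other side of 0. *Sprr3* had 78.7, 99.3 and 106 in *shId1* and 13.2, 39.4 and 38.8 in *shScr* libraries at 24 h, with no overlap, and the *shId1* value was 5.96, 2.52 and 2.73 times the *shScr* value of the same replicate number. *Sprr1a* had 904, 1268 and 1026 in *shId1* and 324, 535 and 670.3 in *shScr* libraries, with no overlap and ratios of 2.79, 2.37 and 1.53. Neither was called in the fit of all 12 hairpin libraries, which takes 1 error from the libraries of both times, with estimates of 1.76 ± 1.07 (adjusted p = 0.31) and 1.11 ± 0.92 (adjusted p = 0.48). With the 6 libraries at 24 h alone both were called higher (*Sprr3*, adjusted p = 0.037, and *Sprr1a*, adjusted p = 0.047). Without the replicates numbered 1 *Sprr3* was called (1.38, adjusted p = 0.00057) and *Sprr1a* was not (0.93, adjusted p = 0.021). *Sprr1b* overlapped, at 0.07 ± 0.23 (adjusted p = 0.88), and changed sign under quantile normalization (-0.090) and without *shScr* replicate 1 (-0.13) or *shId1* replicate 2 (-0.089). The median of the members was 0.07 beside 0.01 over all genes. The suprabasal markers summed to 2043 to 2491 in *shId1* and 2011 to 3115 in *shScr* libraries, ranges that overlapped. *Krt10*, a small part of that sum, had means of 135 in *shId1* and 90.4 in *shScr* cells, a difference that was not tested.

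In hairpin progenitors at 0 h no member was called by limma or edgeR, beside 1.4% of all genes called higher and 0.538% lower, and 1 of the 5 had an unadjusted p under 0.05 in limma. Of all 10790 genes tested, 2419 had such a p. *Sprr1b* came nearest, with 214, 174 and 145 in *shId1* and 111, 74.7 and 100.8 in *shScr* libraries, groups that did not overlap, and a difference of 0.89 ± 0.23 (adjusted p = 0.036), within the fold limit. It was called higher without *shId1* replicate 3 (1.03). *Sprr1a* had 210.3, 23.7 and 14.1 in *shId1* and 74.6, 9.65 and 11.2 in *shScr* libraries, ratios of 2.82, 2.46 and 1.26 by replicate number and a difference of 1.02 ± 0.92 (adjusted p = 0.57). Without *shId1* replicate 1 that estimate turned to -0.14, and with edgeR on recovered reads, a fit that lacks this library, to -0.75. *Sprr3* was at 0.87 ± 1.07 (adjusted p = 0.7) with all libraries and -0.53 without that one. Without the replicates numbered 1 in any group *Sprr1a* was at 0.79 and *Sprr3* at 0.44. *Sprr2b* differed by 0.35 ± 0.25 (adjusted p = 0.45) on 28 reads in *shId1* and 13 in *shScr* libraries in all. *Sprr2a3* was at 0.00 ± 0.34 (adjusted p = 0.999), and at -0.44 without the replicates numbered 1.

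The interaction of hairpin and time, the log2 rise in *shId1* minus that in *shScr* cells, was called for *Sprr2b* alone of the 5, at -1.53 ± 0.35 (adjusted p = 0.022), where 1.77% of all genes were called lower and 1.79% higher. From the means, *Sprr2b* rose 12.4-fold in *shId1* and 66.3-fold in *shScr* cells, folds that rest on few reads at 0 h. The call was lost under 8 of 22 alternatives (adjusted p over all of them 0.0065 to 0.18), among them those without *shScr* replicate 1 or 2 or *shId1* replicate 2 or 3 at 0 h or *shScr* replicate 2 at 24 h, with estimates between -2.32 and -1.19 in all 22. *Sprr1b* was at -0.82 ± 0.32 (adjusted p = 0.15), *Sprr2a3* at -0.65 ± 0.48 (adjusted p = 0.49), *Sprr3* at 0.89 ± 1.52 (adjusted p = 0.81) and *Sprr1a* at 0.09 ± 1.30 (adjusted p = 0.98). *Sprr2b* was lower at 24 h both in *shId1* cells and in ID1 +dox cells than in the controls of each, by log2 differences of -1.19 and -2.81, and whether these differ was not tested.

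**Figure D3:**
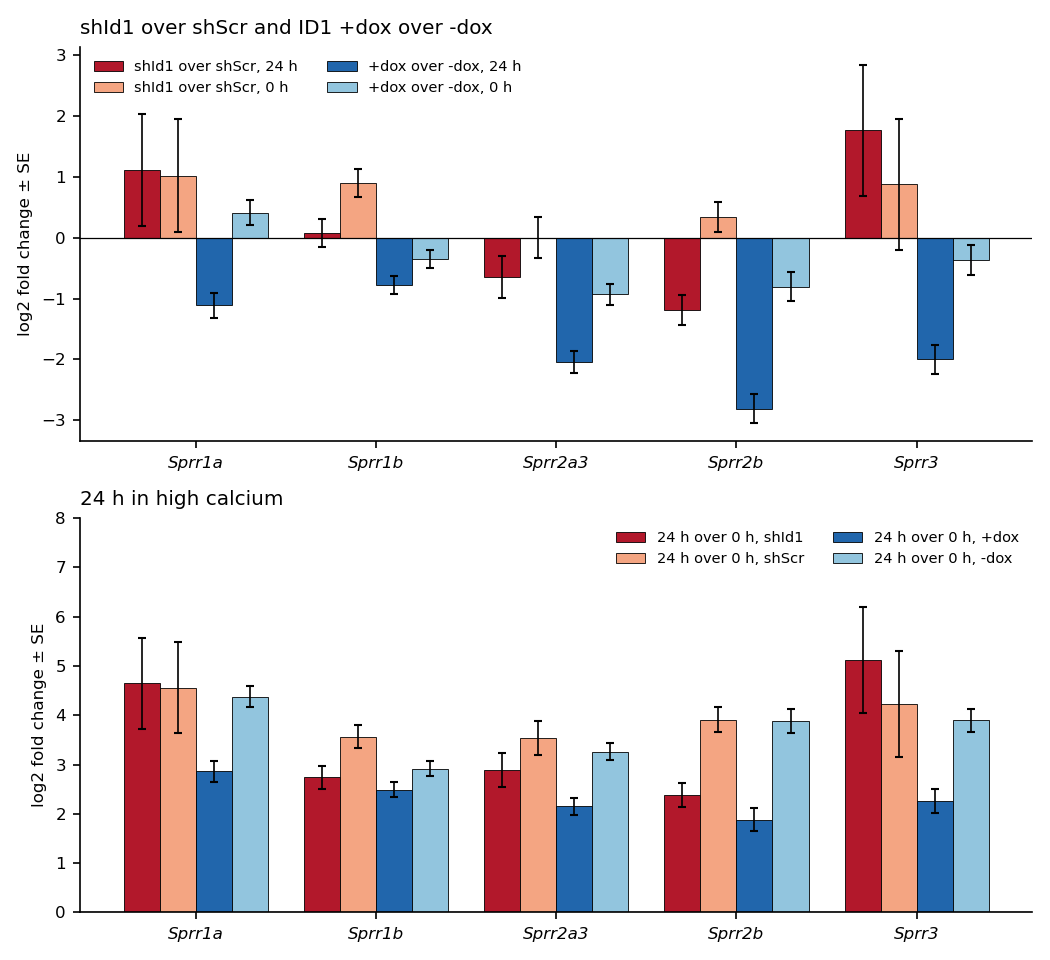
log2 fold changes of the 5 members with their SE from limma, above for shId1 over shScr and ID1 +dox over ID1 -dox at 24 h and 0 h, below for 24 h over 0 h in each arm. Below, every bar is over 1. Above, the 24 h bars of +dox over -dox all point down, while those of shId1 over shScr point down for Sprr2a3 and Sprr2b and up for Sprr1a and Sprr3, where the errors are wide.

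8 of the 11 other *Sprr* genes looked for were in the table, all *Sprr2* genes between *Sprr2b* and *Sprr1b*. In *shId1* cells at 24 h 4 of the 8 rose, none fell and 4 did not pass, with a median of 1.91. *Sprr2f* had 5.98, 5.17 and 5.95 in *shId1* and 0.331, 0.641 and 0.466 in *shScr* libraries (2.67 ± 0.50, adjusted p = 0.0043), *Sprr2e* differed by 2.15 ± 0.48 (adjusted p = 0.011) and *Sprr2g* by 1.66 ± 0.32 (adjusted p = 0.0058). *Sprr2k* was at 1.28 ± 0.36 (adjusted p = 0.032) and was not called with the replicate number as a block (adjusted p = 0.066). *Sprr2d*, with the highest values of the 8, had 1811, 2378 and 2064 in *shId1* and 213, 596 and 545 in *shScr* libraries without overlap, and missed the limit (2.33 ± 0.79, adjusted p = 0.071), as did *Sprr2i* (2.27 ± 0.93, adjusted p = 0.13), *Sprr2h* (1.20 ± 0.41, adjusted p = 0.072) and *Sprr2j-ps* (0.49 ± 0.22, adjusted p = 0.15). The call of *Sprr2k* was also lost without *shScr* replicate 1 or 2 or *shId1* replicate 2 or 3 at 24 h. Without *shId1* replicate 1 at 0 h 7 of the 8 were called, with *Sprr2d*, *Sprr2h* and *Sprr2i* added, and *Sprr2d* was also called without *shScr* replicate 1 at 0 h. All 8 estimates were above 0, while those of *Sprr2b* and *Sprr2a3* were below it. *Sprr2f* passed the filter, a value of 1 in 3 or more libraries, only through *shId1* cells at 24 h. Its tests with these cells were therefore not independent of the filter. Its *shScr* libraries at 24 h held 36 reads in all.

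With doxycycline at 24 h 3 of the 8 fell, *Sprr2h* by 1.05 ± 0.23 (adjusted p = 0.0046), *Sprr2e* by 1.09 ± 0.24 (adjusted p = 0.0053) and *Sprr2f* by 1.13 ± 0.34 (adjusted p = 0.029), and none rose. The other 5 lay between -0.85 (*Sprr2d*) and -0.41 (*Sprr2k*), among them *Sprr2j-ps* (-0.70), *Sprr2g* (-0.58) and *Sprr2i* (-0.44). None of the 3 calls was left without replicate 2 of ID1 -dox or of ID1 +dox at 24 h, and that of *Sprr2h* was also lost without ID1 -dox replicate 3. *Sprr2d* was called without ID1 -dox replicate 1 or ID1 +dox replicate 3. At 0 h none of the 8 was called by limma in either experiment, and 1 had an unadjusted p under 0.05 in *shId1* and 4 in ID1 +dox cells. With doxycycline *Sprr2i* (0.81 ± 0.19, adjusted p = 0.0037), *Sprr2d* (0.74 ± 0.20, adjusted p = 0.011) and *Sprr2g* (0.56 ± 0.16, adjusted p = 0.016) passed limma's p limit but not the fold limit. Over all genes, 2419 of 10790 with the hairpin and 4729 of 10789 with doxycycline had an unadjusted p under 0.05 at 0 h. The 24 h rise was called for all 8 in *shId1* and ID1 -dox cells, for 7 in *shScr* and for 6 in ID1 +dox cells. *Sprr2f* was the exception in *shScr* cells, at 0.38 ± 0.50 (adjusted p = 0.52) on 11, 15 and 10 reads at 24 h and 26, 2 and 0 at 0 h, where the 0 allows a value of up to 0.0881. The rise of *Sprr2i* in *shScr* cells was lost without any 1 of 8 libraries (*shScr* replicate 2 or 3 at 0 h and every hairpin library at 24 h), with estimates of 1.90 to 3.35 over all 12, and that of *Sprr2e* in ID1 +dox cells without replicate 3 at 24 h (0.99). In ID1 +dox cells *Sprr2f* (0.58 ± 0.34, adjusted p = 0.13) and *Sprr2j-ps* (0.75 ± 0.14, adjusted p = 0.0002) were not called. The interaction of doxycycline and time was called lower for 6 of the 8 (*Sprr2d*, *Sprr2e*, *Sprr2f*, *Sprr2g*, *Sprr2h* and *Sprr2i*), between -1.78 and -1.14, and that of *Sprr2f* was lost without any 1 of 6 libraries (replicate 2 or 3 of ID1 -dox and 1 or 3 of ID1 +dox at 0 h, and replicate 2 of each at 24 h).

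**Figure D4:**
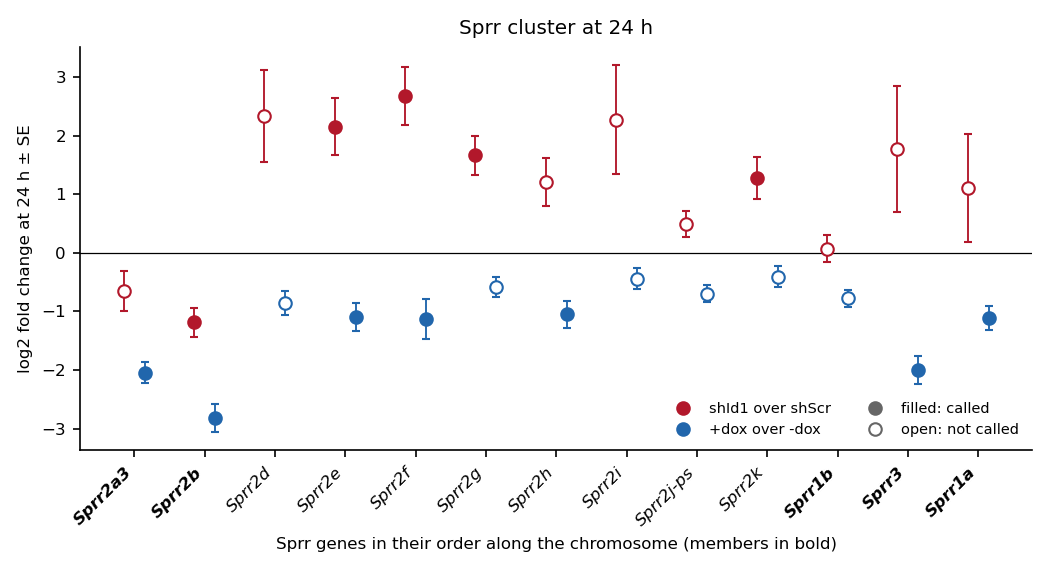
log2 fold change at 24 h with its SE for the 13 Sprr genes of the table in their order along chromosome 3, for shId1 over shScr and ID1 +dox over ID1 -dox, with filled points where called. Every +dox point is below 0. The shId1 points are below 0 for Sprr2a3 and Sprr2b at one end and above 0 for the rest, with Sprr1b close to 0.

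Other genes of the envelope were taken from lists written with earlier results of these data known. Of 37 symbols of other envelope precursors, 22 were in the table. With doxycycline at 24 h 12 of the 22 fell and none rose, with a median of -1.10, led by the late cornified envelope genes *Lce1i* (-1.37 ± 0.18, adjusted p = 0.00011), *Lce1e* (-1.66 ± 0.22, adjusted p = 0.00014) and *Lce1g* (-1.36 ± 0.20, adjusted p = 0.00036). At 0 h 8 rose and 2 fell, with a median of 0.77. *Cdsn*, which encodes the adhesive corneodesmosin, was higher by 3.14 ± 0.15 (adjusted p = 2.4e-09), while *Ivl*, the early precursor involucrin (-1.24 ± 0.11, adjusted p = 8.6e-07), and *Lce1f* (-1.43 ± 0.14, adjusted p = 2.6e-06) were lower. In *shId1* cells 3 of the 18 that could be tested rose at 24 h, all of the *Lce3* group: *Lce3f* (3.99 ± 0.61, adjusted p = 0.0016), *Lce3c* (3.88 ± 0.54, adjusted p = 0.0009) and *Lce3a* (2.76 ± 0.46, adjusted p = 0.0026). At 0 h *Cdsn* was the 1 called (1.05 ± 0.27, adjusted p = 0.038). The 24 h rise was called for 10 of 18 in *shId1*, 8 of 18 in *shScr*, 19 of 22 in ID1 +dox and 21 of 22 in ID1 -dox cells, and no member of the list fell. The genes with the lowest adjusted p were *Ppl*, *Cdsn* and *Dmkn* in both hairpin arms, *Crct1*, *Cnfn* and *Dmkn* in ID1 +dox and *Crct1*, *Cdsn* and *Cnfn* in ID1 -dox cells, and *Crct1* rose most of these, by 4.79 ± 0.18 (adjusted p = 8.5e-11) in ID1 +dox and 6.47 ± 0.18 (adjusted p = 1.6e-12) in ID1 -dox cells. The interaction of doxycycline and time was called lower for 15 of 22, led by *Cdsn* (-2.73 ± 0.21, adjusted p = 2.5e-06), *Lce1a1* (-2.80 ± 0.35, adjusted p = 0.00015) and *Lce1e* (-2.41 ± 0.31, adjusted p = 0.00018), and that of hairpin and time was called for *Lce3c* alone (2.97 ± 0.76, adjusted p = 0.036). In the hairpin experiment these counts moved with single libraries. Without *shId1* replicate 1 at 0 h, 7 were called at 24 h, 16 rose in *shId1* cells and 3 had an interaction. The 1 call at 0 h was lost without any of 7 libraries (the 3 of *shScr* and replicates 1 and 3 of *shId1* at 0 h, and *shScr* replicate 2 and *shId1* replicate 3 at 24 h), and no interaction was left without any of 9 (all but *shId1* replicate 1 and *shScr* replicate 3 at 0 h and *shId1* replicate 1 at 24 h).

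The crosslinkers are 4 transglutaminases, all in the table. *Tgm1*, the membrane enzyme of the envelope, and *Tgm5* rose with calcium in all 4 arms (*Tgm1* by 2.08 in *shId1*, 2.47 in *shScr*, 1.83 in ID1 +dox and 3.19 in ID1 -dox cells). *Tgm3* rose with calcium in *shId1* (1.35 ± 0.37, adjusted p = 0.0084) and *shScr* cells (2.77 ± 0.37, adjusted p = 4.9e-05) and fell in ID1 -dox cells (-1.12 ± 0.27, adjusted p = 0.0014). *Tgm2*, the widely expressed enzyme, fell in *shId1* (-1.39 ± 0.26, adjusted p = 0.00067) and *shScr* cells (-1.42 ± 0.26, adjusted p = 0.00048). With doxycycline *Tgm3* was lower at 24 h (-1.61 ± 0.27, adjusted p = 0.00083) and at 0 h (-2.38 ± 0.27, adjusted p = 9.2e-06), while *Tgm2* (1.58 ± 0.16, adjusted p = 2.9e-06) and *Tgm1* (1.36 ± 0.17, adjusted p = 2.2e-05) were higher at 0 h. *Tgm3* was higher in *shId1* than in *shScr* cells at 0 h (limma, 2.41 ± 0.37, adjusted p = 0.0024), where 2 of the 4 were called without *shId1* replicate 3. At 24 h none was called by limma (1 with an unadjusted p under 0.05). Over all genes, 3172 of 10790 had such a p in *shId1* against *shScr* cells at 24 h. The interaction of doxycycline and time was lower for *Tgm1* (-1.36 ± 0.24, adjusted p = 0.0017), and 2 of the 4 were called without ID1 -dox replicate 2 or ID1 +dox replicate 1 at 0 h.

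Of 21 regulators listed, 17 were in the table. AP-1 subunits were among those that moved with doxycycline. *Fosl1* was lower at 24 h (-1.80 ± 0.18, adjusted p = 2.3e-05), the 1 regulator called there, and higher at 0 h (1.75 ± 0.18, adjusted p = 5.1e-06), as were *Fos* (1.76 ± 0.13, adjusted p = 1.7e-07) and *Klf4*, a barrier factor (1.08 ± 0.12, adjusted p = 6.3e-06). 4 regulators rose and 1 fell at 0 h. The interaction was lower for 7 of 17, led by *Fosl1* (-3.55 ± 0.26, adjusted p = 2.0e-06), *Fos* (-2.13 ± 0.19, adjusted p = 6.7e-06) and *Klf4* (-1.34 ± 0.16, adjusted p = 0.00013). In *shId1* progenitors the ETS-family factor *Ehf* (1.55 ± 0.15, adjusted p = 0.00019) and *Cebpa* (1.42 ± 0.18, adjusted p = 0.00069) were higher at 0 h by limma. At 24 h no regulator was called by limma (6 of 17 had an unadjusted p under 0.05). The limma interaction was lower for *Cebpa* (-2.29 ± 0.25, adjusted p = 0.0017) and *Ehf* (-1.38 ± 0.22, adjusted p = 0.0055). Over all genes, 3172 of 10790 had an unadjusted p under 0.05 in *shId1* against *shScr* cells at 24 h. Without *shScr* replicate 3 at 24 h 1 regulator was called at 24 h and 4 had an interaction. The 24 h rise was called for 8 of 17 in *shId1*, 8 in *shScr*, 6 in ID1 +dox and 13 in ID1 -dox cells, and *Elf5*, another ETS-family factor, was among the 3 with the lowest adjusted p in all 4.

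The members shared their calcium response but not their finer pattern. Across the 24 libraries, which share the contrast of 24 h and 0 h, Pearson's r of the log2 values between members ran from 0.70 (*Sprr2a3* and *Sprr3*) to 0.97 (*Sprr2a3* and *Sprr2b*). In the 12 hairpin libraries *Sprr1a* was closest to *Sprr3* (0.99), and the lowest r was that of *Sprr2b* and *Sprr3* (0.72). In the 12 ID1 libraries the lowest was 0.88. These are descriptions with no test. *Sprr2a3* and *Sprr2b* share sequence, and its part in their r was not tested.

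Of all genes, those with the highest r over the 24 libraries were *Gsdma*, a gasdermin of differentiated skin cells (0.99), *Rnf222* (0.98), *Mxd1*, a MAX partner (0.98), *Gml* (0.98) and *Sprr2h* (0.97) for *Sprr1a*. For *Sprr1b* they were the adaptor *Stap2* (0.99), the lysosomal *Cln3* (0.99) and *Ctsd* (0.98), the kinase *Rps6kb2* (0.98) and *Pinlyp* (0.98). *Sprr2a3* was most like *Sprr2b* (0.97), followed by *Ube2r2* (0.96), *4833439L19Rik* (0.96), the chaperone gene *Dnajb1* (0.96) and the proton pump gene *Atp6v1b2* (0.96). *Sprr2b* was most like *4833439L19Rik* (0.97) and *Sprr2a3*, then *Nxph4* (0.94), *Ube2r2* (0.94) and the autophagy kinase *Ulk1* (0.94). *Sprr3* was most like *Styk1* (0.95), the keratin *Krt23* (0.95), the protease *Tmprss11d* (0.95), *Pla2g4f* (0.95) and the lipoxygenase *Alox12b* (0.94). The points share libraries, depth and the 24 h contrast.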

How the data were processed

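Stranded libraries of poly(A) RNA were sequenced. The processing notes of the authors name bcl2fastq 2.19.1.403 and the build GRCm38, and the authors counted reads per gene and scaled library sizes with edgeR by TMM. An aligner and a counter were not given in the sources used here. They deposited a normalized signal for each gene. Its values are whole multiples of the worth of 1 read in each column (all within 0.05 of a whole number), so they are CPM, counts relative to the scaled library size, although the file's title says FPKM. In 18 of 24 libraries that step could be checked. The control hairpin columns carry the name H2BGFP, a hairpin vector, and were taken as *shScr*.

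For each experiment 1 fit of its 12 libraries was made on log2(value + 0.5) in limma 3.58.1 (R 4.3.3; trend and robust moderation), for the 10790 and 10789 genes that reached 1 in 3 or more libraries, with Benjamini-Hochberg adjustment. Calls needed an adjusted p under 0.05 and a log2 change over 1 in size. The median of all genes was within 0.05 of 0 in every comparison and its shift was not subtracted. The settings varied were the pseudocount (0.1 or 1), the filter (none or 5), median-ratio scaling, quantile normalization, fits of the compared groups or of all 24 libraries, a replicate block, each library left out, the replicates numbered 1 left out, and edgeR 4.0.16 quasi-likelihood tests on whole reads recovered from the 18 libraries, where a lone library of a group is assumed to vary like the other groups. The steps were tested on simulated data with 1 spread for all libraries, no replicate set apart, and changed genes with means of 5 or more. Uneven replicates and genes as low as *Sprr2b* in hairpin progenitors were not covered. Members, lists, motifs and alternatives were chosen with earlier results of these data known. Named genes are all members, all other *Sprr* genes, up to 3 called genes per list and comparison by adjusted p, and the 5 genes most like each member.

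Whether replicate numbers pair the samples was checked by the correlation of deviations from the group means. It was over 0.1 for every number between *shId1* and *shScr* at 24 h (0.30 to 0.71) and at 0 h (0.18 to 0.71), and not in the other comparisons. Libraries of unlike numbers reached 0.65 at 24 h and 0.54 at 0 h. The *shScr* library of the same number was the best match for 2 *shId1* libraries at 24 h and 1 at 0 h. A pairing was therefore not settled. The labels name no shared batch. Sequences are from RefSeq (all 5 members matched), positions from GENCODE M21, which held 10814 of the gene IDs.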

Additional observations from a re-analysis of the deposited data

Results flagged for a closer look

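For 4 members the change with calcium differed between ID1 +dox and ID1 -dox cells by a test of the difference itself (limma interaction, 3 libraries per group). The log2 rise in ID1 +dox minus that in ID1 -dox cells was -1.52 for *Sprr1a* (adjusted p = 0.0035), -1.11 for *Sprr2a3* (adjusted p = 0.0098), -2.00 for *Sprr2b* (adjusted p = 0.0014) and -1.63 for *Sprr3* (adjusted p = 0.0057). For *Sprr2b* the rise also differed between *shId1* and *shScr* cells, by -1.53 (limma interaction, adjusted p = 0.022). The doxycycline calls of *Sprr1a*, *Sprr2a3* and *Sprr3* were lost with all 24 libraries in the fit. The hairpin call of *Sprr2b* was lost in 5 of the 12 fits with 1 library left out.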

How the results depend on the processing

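Of the 5 members, the number called (limma) was 0 in *shId1* against *shScr* at 0 h and 0 to 1 with each library left out. At 24 h it was 1, and 0 with a pseudocount of 0.1 or edgeR on recovered reads, 3 with the compared groups only (2 higher, 1 lower) and 0 to 1 with each library left out. The edgeR fit held 1 library of *shId1* at 24 h and 1 of ID1 +dox at 0 h, which limits its counts there. With doxycycline at 0 h the number called was 0, and 1 with a pseudocount of 0.1. It was 2 under quantile normalization and 0 to 2 with each library left out. With doxycycline at 24 h it was 4, and 2 with all 24 libraries. For the interaction with doxycycline it was 4, and 1 with all 24 libraries or edgeR; for that with the hairpin it was 1, and 0 with a pseudocount of 0.1 or edgeR and 0 to 1 with each library left out. Under quantile normalization it was 1 as well, but *Sprr1b* (-1.07, adjusted p = 0.017) in place of *Sprr2b* (-1.39, adjusted p = 0.057). The replicate number as a block changed no call of a member; among the other *Sprr* genes it ended that of *Sprr2k* at 24 h (adjusted p = 0.066) and gave *Sprr2f* the interaction with the hairpin (2.26, adjusted p = 0.035), and it left none of the other envelope precursors called at 0 h, against *Cdsn* without it. It changed no other call of a *Sprr* gene. The block was 1 effect per replicate number over all 12 libraries of an experiment. Libraries of the same number correlated between *shId1* and *shScr* within a time, but so did some of unlike numbers, so a pairing was not settled. Between 24 h and 0 h libraries no such correlation held for every number. The block therefore cannot show what a pairing within each time would change, and that was not tested.

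Signs turned where no call stood, and the cause was not tested. For *shId1* against *shScr* at 0 h, *Sprr2a3* was -0.013 with a pseudocount of 1, -0.18 under quantile normalization, -0.44 without the replicates numbered 1, -0.18 with edgeR and -0.39 to 0.29 with each library left out. The edgeR fit lacks *shId1* replicate 1 at 0 h but keeps that of *shScr*. In that fit *Sprr1a* was -0.75, *Sprr3* -1.74, *Sprr2d* -0.046, *Sprr2i* -1.10 and *Sprr2k* -0.27. *Sprr2k* was -0.0011 without the replicates numbered 1. With each library left out *Sprr1a* ran from -0.14 to 1.95, *Sprr3* -0.53 to 1.85, *Sprr2f* -0.24 to 0.88, *Sprr2i* -0.39 to 1.74 and *Sprr2k* -0.23 to 0.48, each below 0 without *shId1* replicate 1. At 24 h *Sprr1b* was -0.090 under quantile normalization and -0.13 to 0.26 with each library left out. Under quantile normalization *Sprr2k* with doxycycline at 0 h was -0.012, *Sprr2f* at 24 h against 0 h in *shScr* -0.24 and the hairpin interaction of *Sprr1a* -0.076. With each library left out that interaction ran from -0.84 to 1.25 for *Sprr1a*, -0.083 to 2.29 for *Sprr3* and -0.17 to 0.30 for *Sprr2j-ps*.

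Over all genes, edgeR called 320 against 209 for *shId1* against *shScr* at 0 h, and for the hairpin interaction the number called was 384, and 180 to 255 in 5 of the 12 fits with 1 library left out. Quantile normalization moved the share of higher calls to 23.9%, against 13.3%, in the interaction with doxycycline. The spread between 3 libraries limits the precision, and for *Sprr2b* and *Sprr3* in hairpin progenitors the number of reads does so too.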
